A study of Mus musculus with 18 samples.

Results

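The genes followed here carry out lipid handling in microglia, the resident macrophages of the brain: Apoe, Trem2, Tyrobp, Lpl, Fabp5, Ch25h, Abca1, Abcg1, Soat1 and Pla2g7. All 10 were found among the 55414 gene identifiers of the count tables, and all 10 passed the filter on low counts that left 10948 genes for testing. The 18 libraries came from brain cells labelled as microglia of mice labelled Chd8 KO (knockout) or WT (wild type), with 5 male libraries of each genotype and 4 female libraries of each. Chd8 encodes a chromatin remodeler. The sources used here do not give age, strain, the form of the Chd8 alteration, the cells that carried it or the meaning of the prefix HX in the sample names. Bulk MARS-seq measured the 3' ends of polyadenylated RNA, with a unique molecular identifier (UMI) on every captured transcript.

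APOE is the main apolipoprotein (protein part of lipoproteins) of the brain. It is made chiefly by astrocytes, and also by microglia and by border-associated macrophages of the meninges and vessel walls. TREM2 is a surface receptor that binds lipids and lipoproteins, APOE among them, and it signals through the adaptor TYROBP (DAP12). Cholesterol taken up with myelin or lipoproteins is esterified by SOAT1 or handed back to lipoproteins by the transporters ABCA1 and ABCG1, whose genes, like Apoe, are targets of the oxysterol-activated liver X receptors (LXR). CH25H makes the oxysterol 25-hydroxycholesterol, LPL releases fatty acids from lipoproteins, FABP5 carries fatty acids inside the cell, and PLA2G7 is a secreted phospholipase that cleaves platelet-activating factor and oxidised phospholipids.

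The libraries held 435838 to 9149144 UMIs, and all of them were rich in microglial transcripts, since 12 microglial markers summed to 32415 to 42948 CPM (UMI counts scaled to library size). Reads per UMI fell into 3 ranges, with 8 libraries at 1.79 to 1.89, 6 at 2.94 to 3.12 and 4 at 5.52 to 7.26. Of the 4 libraries in the highest range, 3 were female WT, 1 was female KO and 0 were male. Chd8 itself was at 96.4 to 116 CPM in male KO and 135 to 167 CPM in male WT, and at 116 to 139 CPM in female KO and 132 to 186 CPM in female WT. A 3' tag outside a removed part would still be counted, so that these Chd8 levels do not check the label. The labels do not say that the libraries came from separate animals, and p-values measure the spread between these libraries only.

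Promoter sequence was compared for Apoe and Trem2 because Apoe differed between the male groups and Trem2 did not pass there. RefSeq start sites (GRCm38.p6) gave windows for Apoe, Trem2, Pla2g7, Ch25h, Abca1 and Soat1, 6 of the 10 genes. The 250 bases before each start were searched on both strands. The core of the motif of PU.1, a transcription factor of macrophages, was searched as GAGGAA. It lay before Apoe and Trem2, where a gene counts if any of its windows holds it. Of the 32851 single windows of all genes, 23.3% held it. A gene with several windows, such as Apoe, has more chances of a match. In the lines below the core is in capitals, on the gene's own strand, 5′ to 3′. The Apoe copies lie before its first start (chr7:19699409-19699438, minus strand) and before an internal start (chr7:19698513-19698542, minus strand), and the Trem2 copy (chr17:48346349-48346378, plus strand) is in reverse.
Apoe, first start: GAGGAAtcaacaacgagggatcccagaaca
Apoe, internal start: gccgggaagaaaGAGGAAtgtaagctggac
Trem2: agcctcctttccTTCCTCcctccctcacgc
The core starts 250 bases before the first Apoe start and 40 bases before the Trem2 start. The LXR direct repeat, 2 copies of AGGTCA with 4 bases between them, was in no window of the 6 genes and in 0.0152% of all windows. A single AGGTCA was in a Trem2 window and in 14.0% of all windows. A match is a description of letters, and no match says only that these letters are not in this window.

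Apoe (ENSMUSG00000002985, chromosome 7, 19696109 to 19699188, minus strand, GRCm38) was high in every group except male WT. In male KO the 5 libraries measured 3936, 4235, 3227, 4065 and 3172 CPM (replicates 6, 9, 17, 36 and 40), and in male WT 1825, 1804, 1490, 2055 and 1768 CPM (replicates 10, 11, 13, 14 and 37). Every male KO library lay above every male WT library. Female KO libraries measured 4146, 4937, 3801 and 3842 CPM (replicates 1, 7, 16 and 33) and female WT libraries 5907, 3200, 4731 and 6925 CPM (replicates 30, 31, 34 and 39). The female groups overlapped, and both lay wholly above male WT.

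Group means of Apoe were 3727 ± 493 CPM for male KO against 1788 ± 201 CPM for male WT (SD, n = 5 each), so that Apoe rose 2.08-fold in male KO, a log2 fold change of 1.06 ± 0.16 (SE, 95% interval 0.73 to 1.39, edgeR quasi-likelihood test, p adjusted by Benjamini-Hochberg over all genes = 0.000198). The female means were 4181 ± 527 CPM for KO and 5191 ± 1601 CPM for WT (n = 4 each), a log2 difference of -0.31 ± 0.17 that did not pass (edgeR adjusted p = 0.408). The KO effect itself differed between the sexes, at -1.37 ± 0.24 for females minus males (edgeR adjusted p = 0.0147). In order of level the groups ran from female WT through female KO and male KO to male WT. Only the last step passed a test, since male and female KO differed by -0.17 ± 0.17 (edgeR adjusted p = 0.572). Male WT lay 2.90-fold below female WT, at -1.54 ± 0.17 on the log2 scale (edgeR adjusted p = 4.1e-06).

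Pla2g7 (ENSMUSG00000023913, chromosome 17, 43568098 to 43612201, plus strand) followed the same order of groups at far fewer counts, 804 UMIs in all libraries together. In male WT the libraries measured 4.00, 4.34, 3.03, 3.83 and 3.90 CPM, and in male KO 25.2, 24.9, 24.6, 16.7 and 13.5 CPM, in the replicate order given for Apoe. Female KO libraries measured 28.8, 25.2, 13.2 and 38.6 CPM and female WT libraries 41.0, 13.5, 55.98 and 28.8 CPM. Male WT stood alone at the bottom, and the other groups overlapped one another. The lowest Pla2g7 library outside male WT, female KO replicate 16, was still above its highest library.

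Pla2g7 rose 5.29-fold in male KO, a log2 fold change of 2.402 ± 0.34 (95% interval 1.70 to 3.10, edgeR adjusted p = 0.000116), from 3.82 ± 0.486 to 20.96 ± 5.48 CPM (SD, n = 5 each). In females it was 26.4 ± 10.5 CPM for KO and 34.8 ± 18.05 CPM in WT (n = 4 each), and the difference of -0.41 ± 0.34 did not pass (edgeR adjusted p = 0.622). The sexes differed in the KO effect by -2.82 ± 0.49 (edgeR adjusted p = 0.0147). Male WT was 8.22-fold below female WT (-3.04 ± 0.37, edgeR adjusted p = 1.47e-05), whereas male and female KO differed by -0.22 ± 0.30 (edgeR adjusted p = 0.702). Exons of Pla2g7 overlap an antisense gene, 1700071M16Rik, for which 0 UMIs were counted, and the sources used here do not give the strand setting of the counting.

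Apoe and Pla2g7 were the only genes of the 10 called in males (both higher, none lower), where 6.24% of all tested genes were called, 3.37% higher and 2.87% lower. The median log2 fold change of the 10 was 0.06, beside -0.01 over all genes. Both genes were also the only ones of the 10 whose male KO and male WT libraries did not overlap, which held for 9.85% of all genes. For the difference of the KO effect between the sexes, 2 of the 10 were called, again Apoe and Pla2g7 and both more negative in females, against 0.237% of all genes called and 0.192% called in that direction. Both sex-difference calls were lost without female WT replicate 30 (log2 -1.30 and -2.64, edgeR adjusted p = 0.0560 for each) and without male KO replicates 6, 9 and 17 together (-1.32 and -2.36, edgeR adjusted p = 0.166 for each). The 10 genes were chosen with earlier results of these data known, so the shares of all genes given here do not test the set.

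**Figure D1:**
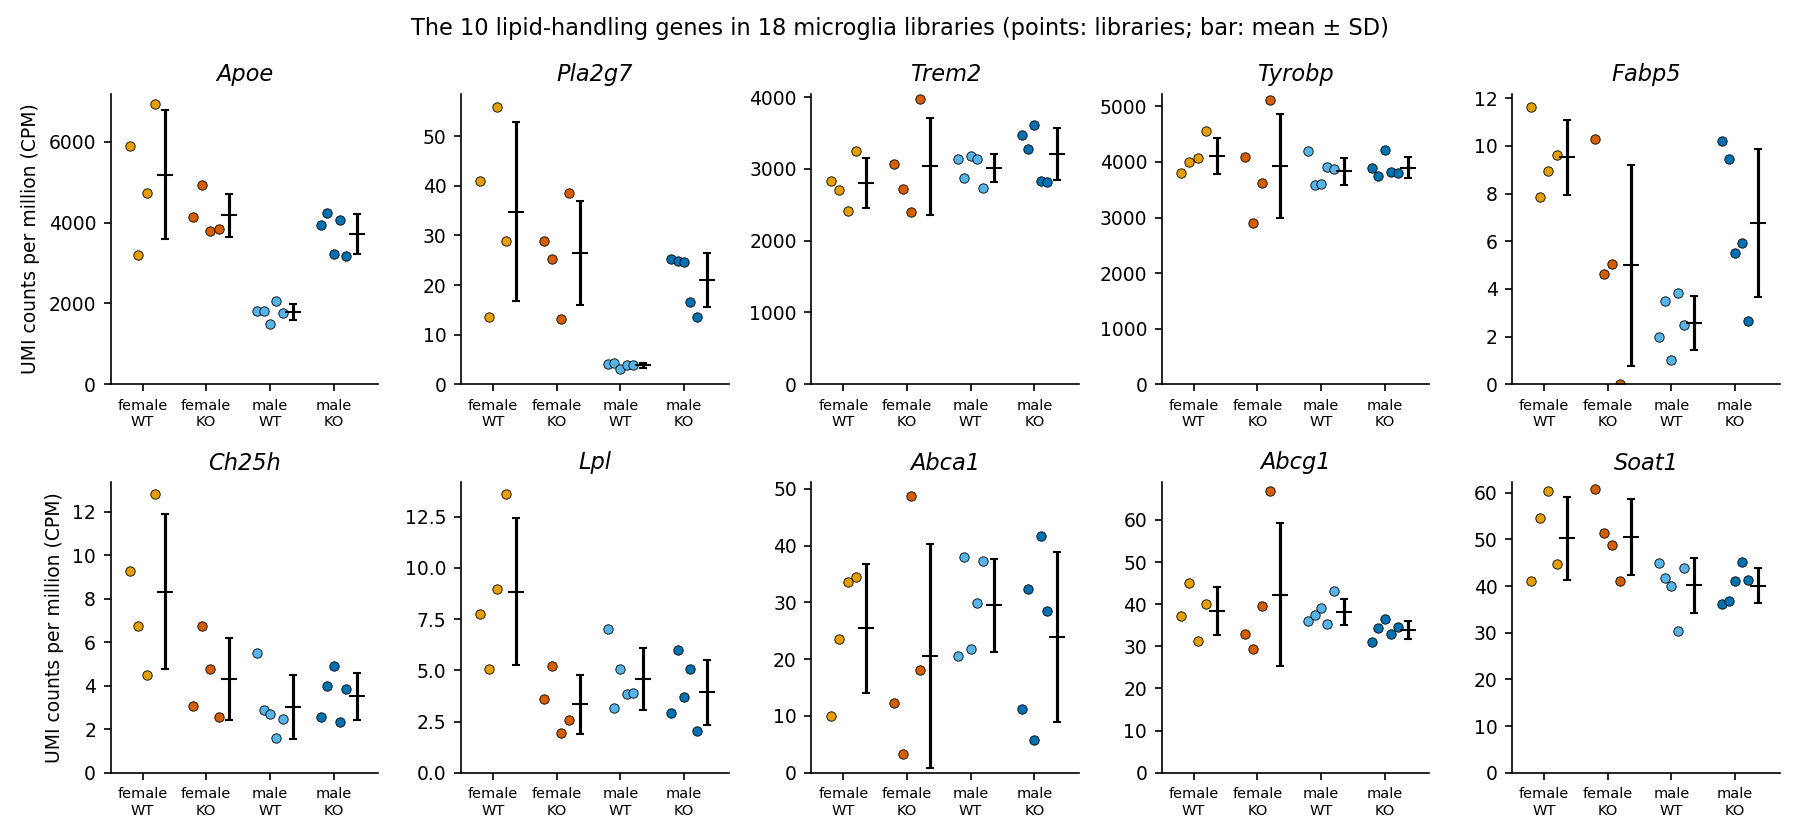
CPM (vertical axes, 1 scale per gene) for each of the 10 genes in female WT, female KO, male WT and male KO; points are libraries and bars the mean ± SD. Apoe and Pla2g7 show 5 male WT libraries (1490 to 2055 and 3.03 to 4.34 CPM) below every other library, while Trem2 and Tyrobp stay within one band.

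The receptor and its adaptor did not follow Apoe. Trem2 (ENSMUSG00000023992, chromosome 17, 48346401 to 48354147, plus strand) measured 3468, 3276, 3609, 2828 and 2824 CPM in male KO and 3132, 2868, 3174, 3140 and 2732 CPM in male WT. In females it measured 3065, 2717, 2407 and 3970 CPM in KO and 2837, 2704, 2420 and 3252 CPM in WT. All 4 groups overlapped, with the highest library of all, replicate 33, and the lowest, replicate 16, both in female KO.

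Trem2 differed by 0.09 ± 0.12 on the log2 scale between male KO and WT (95% interval -0.17 to 0.35, edgeR adjusted p = 0.804) and by 0.11 ± 0.14 in females (-0.18 to 0.40, edgeR adjusted p = 0.771). Between the sexes the differences were 0.10 ± 0.13 in WT (edgeR adjusted p = 0.647) and 0.08 ± 0.13 in KO (edgeR adjusted p = 0.773). In this fit, without covariates, the male interval leaves room for a rise in Trem2 of at most 0.35, which lies below the lower bound of 0.73 for Apoe.

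Tyrobp (ENSMUSG00000030579, chromosome 7, 30413760 to 30417585, plus strand) was as flat. Male KO libraries measured 3889, 3739, 4215, 3821 and 3794 CPM and male WT libraries 4191, 3583, 3604, 3902 and 3869 CPM. Female KO libraries measured 4090, 2893, 3629 and 5121 CPM and female WT libraries 3804, 4002, 4066 and 4557 CPM. The male groups overlapped almost completely, and the widest spread was again within female KO, between replicates 7 and 33. The log2 differences were 0.02 ± 0.12 in males (95% interval -0.22 to 0.27, edgeR adjusted p = 0.962) and -0.06 ± 0.13 in females (-0.34 to 0.21, edgeR adjusted p = 0.876).

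Ch25h (ENSMUSG00000050370, chromosome 19, 34473778 to 34475164, minus strand), a single-exon gene, was counted with only 209 UMIs in all 18 libraries. It was at 9.29, 6.74, 4.48 and 12.8 CPM in female WT and at 5.51, 2.90, 2.69, 1.59 and 2.48 CPM in male WT. In female KO it was at 3.09, 6.75, 4.77 and 2.57 CPM and in male KO at 2.55, 3.98, 4.91, 2.32 and 3.86 CPM. Female WT held the highest values, although its replicates 31 and 34 fell within the range of the other groups. Female KO replicate 33 held only 1 Ch25h UMI and female WT replicate 34 only 2, so their levels are uncertain. Ch25h was 2.97-fold lower in male than in female WT (-1.57 ± 0.39, edgeR adjusted p = 0.00817), and the KO differences, 0.26 ± 0.35 in males and -0.86 ± 0.40 in females, did not pass (edgeR adjusted p = 0.791 and 0.307). Its exon overlaps one of the opposite-strand gene Gm26902, for which 15 UMIs were counted.

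Fabp5 (ENSMUSG00000027533, chromosome 3, 10012548 to 10016607, plus strand) had 255 UMIs in all libraries. Male WT libraries were at 2.002, 3.47, 1.01, 3.83 and 2.48 CPM, and all 5 lay below the female WT libraries at 11.6, 7.87, 8.96 and 9.60 CPM. Male KO libraries were at 10.2, 9.46, 5.53, 5.91 and 2.64 CPM, and female KO libraries at 10.3, 4.61 and 5.05 CPM with 0 UMIs in replicate 33, which allows up to 7.72 CPM (3 counts). Fabp5 thus reached the female WT level in some male KO libraries and not in others. It was 3.60-fold lower in male than in female WT (-1.85 ± 0.48, edgeR adjusted p = 0.0109), a call lost at a similar size without female WT replicate 30 (-1.71, edgeR adjusted p = 0.0511), on read counts (-1.52, 0.102) and with the range of reads per UMI in the fit (-1.88, 0.147).

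The male KO difference of Fabp5, 1.26 ± 0.42, did not pass (edgeR adjusted p = 0.0817). It passed with DESeq2 (adjusted p = 0.0406), with no filter on low counts (edgeR adjusted p = 0.0297), with the range of reads per UMI in the fit (0.0321) and without male KO replicate 40 (0.0222). Reads of its pseudogene Fabp5l2 could be split or merged with those of Fabp5 in the counting.

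Lpl (ENSMUSG00000015568, chromosome 8, 68880491 to 68907448, plus strand) had 211 UMIs. Female WT libraries measured 7.74, 5.06, 8.96 and 13.6 CPM and female KO libraries 3.61, 5.22, 1.96 and 2.57 CPM. Female KO replicate 7 just exceeded female WT replicate 31, and otherwise the female WT libraries were the higher ones. Female KO replicate 33 held only 1 Lpl UMI and female WT replicate 34 only 4, so their places in that order are uncertain. The female KO difference of -1.29 ± 0.45 did not pass (edgeR adjusted p = 0.136). On read counts without UMI correction it was -2.32 and passed (edgeR adjusted p = 0.0399), as did the lower level in male than in female WT on those counts (-1.54, edgeR adjusted p = 0.0492). Male KO libraries, at 2.92, 5.97, 3.68, 5.06 and 2.03 CPM, overlapped male WT libraries, at 7.01, 3.19, 5.04, 3.83 and 3.90 CPM (-0.26 ± 0.35, edgeR adjusted p = 0.795).

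The sterol exporters and the esterifying enzyme showed no call in any comparison. Abca1 (ENSMUSG00000015243, chromosome 4, 53030787 to 53159895, minus strand) varied more within groups than between them, from 3.38 to 48.8 CPM in female KO, 10.1 to 34.4 CPM in female WT, 5.83 to 41.8 CPM in male KO and 20.5 to 37.9 CPM in male WT. Its male difference of -0.29 ± 0.46 has a 95% interval of -1.24 to 0.67 and its female difference of -0.15 ± 0.63 one of -1.45 to 1.16, and both intervals hold changes in either direction. Abcg1 (ENSMUSG00000024030, chromosome 17, 31057675 to 31117988, plus strand) was tighter, at 33.9 ± 2.07 CPM in male KO and 38.2 ± 3.13 CPM in male WT (SD, n = 5 each), a log2 difference of -0.17 ± 0.14 (95% interval -0.47 to 0.13, edgeR adjusted p = 0.610). A single library, female KO replicate 33 at 66.9 CPM, stood above the 42.2 ± 17.0 CPM mean of its group. Both transporters are LXR targets like Apoe. Neither was called in males, where the interval of Abca1 is wide, and a part of LXR in these values was not tested.

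Soat1 (ENSMUSG00000026600, chromosome 1, 156424525 to 156474331, minus strand) was at 40.1 ± 3.69 CPM in male KO and 40.2 ± 5.87 CPM in male WT, and at 50.5 ± 8.08 CPM in female KO and 50.2 ± 8.88 CPM in female WT. Genotype made no detectable difference in males (0.01 ± 0.13, 95% interval -0.26 to 0.28). The lower male levels did not pass in WT (-0.30 ± 0.15, edgeR adjusted p = 0.187) or in KO (-0.36 ± 0.14, edgeR adjusted p = 0.123).

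In females the edgeR quasi-likelihood test called 0 of the 10 genes, beside 2.68% of all genes, with 2 of the 10 (Lpl and Ch25h) at an unadjusted p under 0.05. DESeq2 also called 0, with 1 at an unadjusted p under 0.05. The median of the 10 was -0.23, beside 0.01 over all genes. Between male and female WT, 4 of the 10 were called (Apoe, Pla2g7, Fabp5 and Ch25h), all lower in males, against 17.3% of all genes called and 10.3% called lower. Apoe, Pla2g7 and Fabp5, 3 of the 10, did not overlap between these groups, against 18.2% of all genes. Between male and female KO, 0 of the 10 were called by edgeR or DESeq2, against 7.1% of all genes, and 1 of the 10 had an unadjusted p under 0.05 with either tool (Soat1 with edgeR). The male and female WT groups serve in the genotype and the sex comparisons alike, so these counts share libraries.

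**Figure D2:**
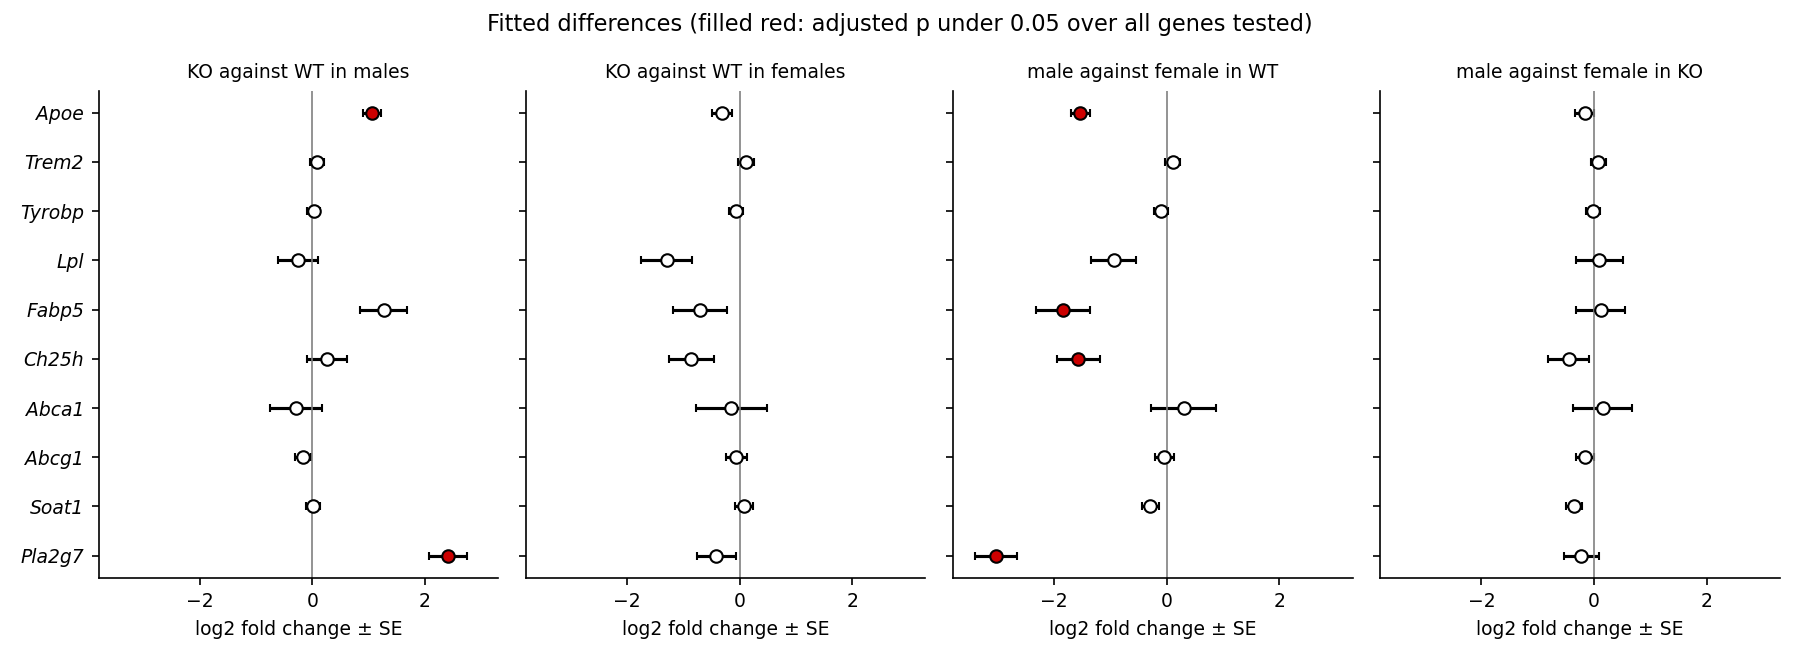
Log2 fold changes (horizontal axes, points with ± SE bars) of the 10 genes for KO against WT (males, females) and for male against female (WT, KO); filled points have an edgeR adjusted p under 0.05. Filled points are Apoe and Pla2g7 in males (1.06 and 2.402) and Apoe, Fabp5, Ch25h and Pla2g7 in WT (-1.54, -1.85, -1.57 and -3.04).

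Other genes of these pathways were read from 5 lists that leave the 10 genes out. In the list of LXR targets and cholesterol efflux, 2 of 15 tested genes rose in male KO and 0 fell, beside 3.37% and 2.87% of all genes, with a list median of 0.00. Pltp, the phospholipid transfer protein that remodels lipoproteins, rose by a log2 fold change of 1.06 ± 0.26 (edgeR adjusted p = 0.0138), from 12.3 ± 3.08 to 26.6 ± 6.93 CPM (SD, n = 5 each). It was also lower in male than in female WT (-1.85 ± 0.29, edgeR adjusted p = 0.000166), the same low group as for Apoe. The list as a whole did not share that order. Of its 15 tested genes 2 were called lower and 2 higher in male than in female WT, beside 17.3% of all genes called. Cyp27a1, which makes 27-hydroxycholesterol, rose by 0.41 ± 0.12 (edgeR adjusted p = 0.0358), from 139 ± 12.5 to 184 ± 18.5 CPM. In females 0 of the 15 passed, beside 2.68% of all genes (list median -0.01).

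Genes around TREM2 moved singly. Of 17 tested genes in the TREM2 and TYROBP list, 1 rose and 1 fell in male KO, beside 3.37% and 2.87% of all genes. Treml2, a related receptor, rose by 0.86 ± 0.24 (edgeR adjusted p = 0.0334). Lat2, an adaptor downstream of immunoreceptors, fell by 0.79 on the log2 scale (SE 0.14, edgeR adjusted p = 0.000886), from 222 ± 26.01 to 128 ± 19.5 CPM (n = 5 each). In females 1 of the 17 changed, beside 2.68% of all genes: Hcst (DAP10), another membrane adaptor that pairs with TREM2. Hcst fell by 0.75 (SE 0.15, edgeR adjusted p = 0.0117), from 74.1 ± 6.07 to 44.5 ± 3.28 CPM (n = 4 each). The Hcst call was lost when only the female groups were fitted (-0.72, edgeR adjusted p = 0.145), with the monocyte and neutrophil sum in the fit (-0.61, 0.145), with the range of reads per UMI in it (-0.71, 0.0738), on read counts (-0.64, 0.117) and without female WT replicate 30 (-0.69, 0.0578). Monocyte markers went the same way, at 176 CPM in female KO and 559 CPM in female WT, and their part in the Hcst difference was not tested. Over all genes, the fit of only the female groups called 0 in females, against 293 in the main fit. The fit with the monocyte and neutrophil sum called 25. The medians of the list were -0.02 in males and -0.03 in females.

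The 4 male calls of these lists depended on which libraries and terms entered the fit. All 4 were lost with the border-associated macrophage sum as a covariate, where Pltp was at 0.88 (edgeR adjusted p = 0.797), Cyp27a1 at 0.55 (0.712), Lat2 at -0.89 (0.550) and Treml2 turned to -0.49 (0.999). That fit called 0 of all genes in males, against 683 without the covariate, so the lost calls say nothing particular about these 4 genes. Without male KO replicates 6, 9 and 17 together they were lost as well (0.79, 0.52, -0.57 and 0.84 in the same order, edgeR adjusted p = 0.284, 0.117, 0.150 and 0.231). The astrocyte sum as a covariate ended the calls of Cyp27a1 and Treml2 (0.52 and 0.46, edgeR adjusted p = 0.0508 and 0.506). The monocyte and neutrophil sum did so too (0.37 and 0.84, edgeR adjusted p = 0.0551 and 0.0515). The astrocyte sum without its marker Slc1a3, chosen after seeing the data, ended all 4 (0.93, 0.75, -0.20 and 0.55 in the same order, edgeR adjusted p = 0.508, 0.145, 0.787 and 0.684). Over all genes that fit called 15 in males, against 683. The Cyp27a1 call was also lost on leaving out male KO replicate 6, 17, 36 or 40 or male WT replicate 10, 13 or 37 (0.37 to 0.43, edgeR adjusted p = 0.0530 to 0.0971). The Treml2 call was lost on leaving out the same male KO replicates or male WT replicate 13, 14 or 37 (0.77 to 0.89, edgeR adjusted p = 0.0552 to 0.0980). On read counts neither passed (0.42 and 0.88, edgeR adjusted p = 0.215 and 0.506).

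No gene of the remaining lists passed in either KO comparison by edgeR. That covers 6 tested genes of lipoprotein and lipid uptake (medians -0.25 in males and -0.10 in females), 19 of sterol esters, lysosomal sterol and lipid droplets (0.04 and 0.12) and 13 of fatty acids and phospholipases (-0.11 and -0.06). For the sex difference in the KO effect, 0 genes of the 5 lists passed.

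**Figure D3:**
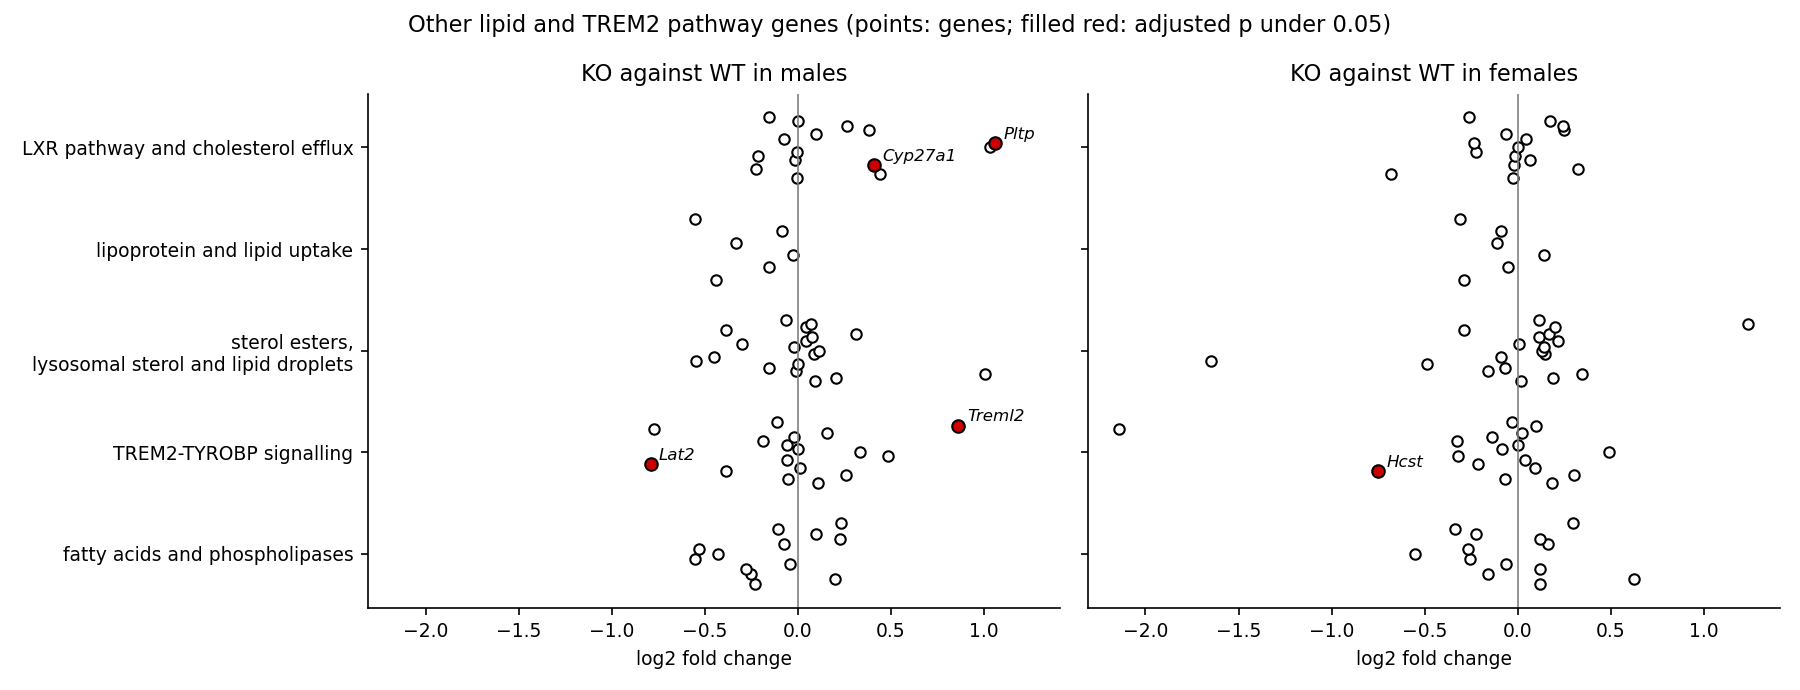
Log2 fold changes of KO against WT (horizontal axes) of the tested genes of 5 pathway lists, in males and in females; each point is a gene and filled points have an edgeR adjusted p under 0.05. The filled points are Pltp, Cyp27a1, Treml2 and Lat2 in males and Hcst in females.

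Content of other cells moved with the same groups. Border-associated macrophage markers, 15 genes that include Cbr2, Pf4 and Clec10a, summed to 225 to 352 CPM in male KO and 49.3 to 90.4 CPM in male WT, with no overlap. The mean was 3.66-fold higher in male KO (269 ± 52.7 against 73.4 ± 15.4 CPM, SD, n = 5 each, exact permutation test, two-sided p = 0.00794, the smallest that 5 against 5 allows, adjusted p = 0.0254 over 16 tests). The female sums were 297 ± 78.6 CPM for KO and 336 ± 94.9 CPM for WT (n = 4 each, exact permutation p = 0.6, adjusted 0.686). This is the group order of Apoe and Pla2g7, with male WT alone at the bottom. Of 14 tested markers 10 rose in male KO and 0 fell, beside 3.37% and 2.87% of all genes, and 12 were lower in male than in female WT, beside 10.3%. The marker list, too, was chosen with earlier results of these data known. Pf4, at 72.3 CPM in male KO and 20.3 CPM in male WT, and Cbr2, at 42.0 and 7.44 CPM, were counted in every library, as was Lyve1, at 7.02 and 1.09 CPM. Fewer cells of a type and less RNA per cell cannot be told apart in these bulk libraries.

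Astrocyte content gave another order. The 13 markers summed to 371 ± 107 CPM for male KO against 158 ± 17.9 CPM for male WT, 2.36-fold (n = 5 each, exact permutation p = 0.00794, adjusted 0.0254), and to 165 ± 102 CPM in female KO and 91.1 ± 44.4 CPM in female WT (n = 4 each, exact permutation p = 0.286, adjusted 0.416). Slc1a3, the glutamate transporter GLAST, made up 77.1% to 93.6% of the sum in male WT. Without it male WT, not female WT, was the lowest group: the male sums were 178 CPM for KO against 19.5 CPM for WT (9.16-fold, exact permutation p = 0.00794) and the female sums 52.1 and 33.7 CPM (exact permutation p = 0.371). The astrocyte water channel Aqp4 was at 0 in 4 of 5 male WT and 1 of 5 male KO libraries, as well as in 3 of 4 female WT and 4 of 4 female KO libraries. The gap junction gene Gja1 was at 0 in 5 of 5, 1 of 5, 4 of 4 and 3 of 4, in the same order. Aldoc, at 90.8 CPM in male KO and 7.81 CPM in male WT, and Slc1a2, at 40.5 and 1.90 CPM, were counted in every library.

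**Figure D4:**
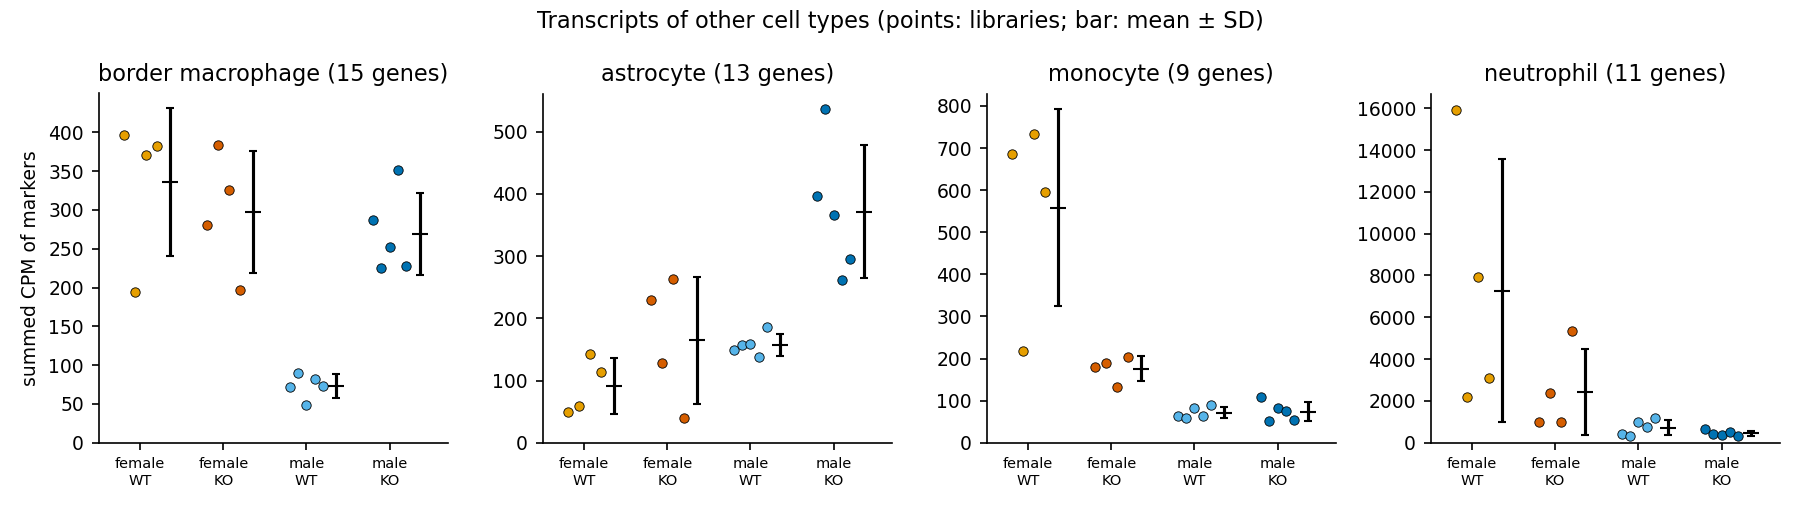
Summed CPM of border-associated macrophage, astrocyte, monocyte and neutrophil markers (vertical axes, 1 scale per list) in female WT, female KO, male WT and male KO; points are libraries and bars the mean ± SD. The macrophage sums of male WT (49.3 to 90.4 CPM) lie below all other libraries, while the astrocyte sums are highest in male KO (262 to 536 CPM).

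Within groups Apoe went with the macrophage markers, although the relation did not pass adjustment. With each group's mean removed, log2(CPM + 1) of Apoe and of the summed border-associated macrophage markers had a Pearson r of 0.73 and a Spearman rho of 0.70 over the 18 libraries (permutation within groups, two-sided p = 0.00304 and 0.00379, the p of r 0.0608 after adjustment over 20 relations). The relation rests in part on female WT replicate 31, without which r was 0.54. Without the libraries farthest from their own group's mean content, that library and female KO replicate 33, r was 0.53. Without male WT replicates 10 and 13, farthest from the median content of all libraries, it was 0.71, and within groups of the same reads-per-UMI range it was 0.91 over 14 libraries. Apoe and the astrocyte sum had r of 0.16 and rho of 0.01 (permutation p = 0.605 and 0.973, the first adjusted 0.743), and 0.01 without female KO replicate 33 and male KO replicate 9. Pla2g7 had r of 0.27 and rho of 0.04 with the macrophage sum (permutation p = 0.431 and 0.888, the first adjusted 0.743), and 0.23 without the same male WT replicates. That r of Pla2g7 was 0.69 within groups of the same reads-per-UMI range (14 libraries) and 0.63 on read counts, but -0.21 without female WT replicate 31, so that its size and sign changed with the libraries and counts used. The r of Fabp5 with the astrocyte sum, 0.70 (rho 0.53, permutation p = 0.0416 and 0.0344, the first adjusted 0.208), fell to 0.13 without female KO replicate 33 and male KO replicate 9 and to 0.31 without female KO replicates 16 and 33, and so rests on those libraries. Fabp5 also had r of 0.55 and rho of 0.42 with the macrophage sum (permutation p = 0.0245 and 0.110, the first adjusted 0.163). Abcg1 ran opposite to that sum, with r of -0.63 and rho of -0.59 (permutation p = 0.0127 and 0.0242, the first adjusted 0.127). Without female KO replicate 33 and female WT replicate 31 these r were 0.34 for Fabp5 and -0.28 for Abcg1. None of the 20 relations passed the adjustment.

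The male differences were also fitted beside the marker sums. With the border-associated macrophage sum as a covariate, the male log2 fold change of Apoe was 0.07 (edgeR adjusted p = 0.999) and that of Pla2g7 was 1.56 (edgeR adjusted p = 0.694), and 0 of 10948 genes were called, with 803 at an unadjusted p under 0.05. With the astrocyte sum they were 0.99 and 2.41 (edgeR adjusted p = 0.00690 and 0.00455), and with the astrocyte sum without Slc1a3 0.98 and 1.23 (edgeR adjusted p = 0.172 and 0.319). Genotype and each of these sums go together in males, because the sums of male KO and male WT did not overlap, so that genotype and content cannot be told apart by these fits. Between male and female WT, the macrophage sum likewise ended the calls of Apoe (-0.35, edgeR adjusted p = 0.695), Pla2g7 (-2.04, 0.351), Fabp5 (-0.42, 0.932) and Ch25h (-1.14, 0.664). Over all genes 20 were called there, against 1892 without the covariate. The sums of male WT (49.3 to 90.4 CPM) and female WT (194 to 396 CPM) did not overlap either, so that sex and content cannot be told apart. Trem2 and Tyrobp stayed uncalled in males under all 3 covariates. With the macrophage sum that says nothing about them, since no gene was called there. Their male values in that fit were 0.46 and 0.38 (edgeR adjusted p = 0.771 and 0.794).

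Neuron and oligodendrocyte markers were higher in male KO as well, at 195 ± 116 against 23.6 ± 10.2 CPM and 513 ± 246 against 119 ± 21.3 CPM (n = 5 each, exact permutation adjusted p = 0.0254 for both). The high sums came from male KO replicates 6, 9 and 17, at 268, 339 and 210 CPM of neuron and 640, 827 and 568 CPM of oligodendrocyte markers. Replicates 36 and 40 were at 71.7 and 86.2 CPM and at 243 and 287 CPM, still above every male WT library (up to 39.2 and 152 CPM). The microglial marker sum was lower in male KO, at 35791 ± 2015 against 40083 ± 1641 CPM (adjusted p = 0.0254 by the same test). Of its 12 markers 2 were called lower by edgeR, Cx3cr1 and Olfml3, and 0 higher. The Cx3cr1 mean fell from 2881 to 1301 CPM. Means of P2ry12, P2ry13 and Sall1 were higher in male KO, and those of the other markers lower. The female sums went the other way, without overlap. Their KO mean was 38383 CPM, beside 33818 CPM for WT (exact permutation p = 0.0286, adjusted 0.0571). The part of these marker sums in the Apoe and Pla2g7 differences was not tested. Female WT, the group with the highest Apoe, Pla2g7, Fabp5, Ch25h and Lpl means, had the highest monocyte markers, at 559 ± 234 CPM against 176 ± 30.8 CPM in female KO (n = 4 each, exact permutation p = 0.0286, the smallest that 4 against 4 allows, adjusted 0.0571) and 71.8 ± 13.5 CPM in male WT. Its neutrophil markers reached 15924 CPM in replicate 30. With the monocyte and neutrophil sum as a covariate, the lower male WT levels of Fabp5, Ch25h and Pla2g7 no longer passed (log2 -1.87, -1.91 and -1.77, edgeR adjusted p = 0.382, 0.256 and 0.153), while Apoe stayed called. Over all genes 44 were called in that fit, against 1892 without the covariate. Monocyte sums of male WT (59.9 to 90.5 CPM) and female WT (219 to 734 CPM) did not overlap. Neither did their neutrophil sums (317 to 1161 and 2179 to 15924 CPM), so that sex and this content cannot be told apart.

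The male differences were as large within ranges of reads per UMI. Within the lowest reads-per-UMI range, Apoe was at 3600 CPM in 4 male KO and 1694 CPM in 3 male WT libraries (2.12-fold) and Pla2g7 at 20.0 and 3.64 CPM (5.48-fold). In the middle range, with 1 male KO and 2 male WT libraries, the ratios were 2.19 and 6.09. A fit to the 7 male libraries of the lowest range, added after seeing the data, gave 1.09 for Apoe and 2.41 for Pla2g7 (edgeR adjusted p = 0.00015 and 0.000659). The female libraries split too thinly over the ranges for such a test, with 1 female WT library in the middle range and 1 female KO library in the highest.

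**Figure D5:**
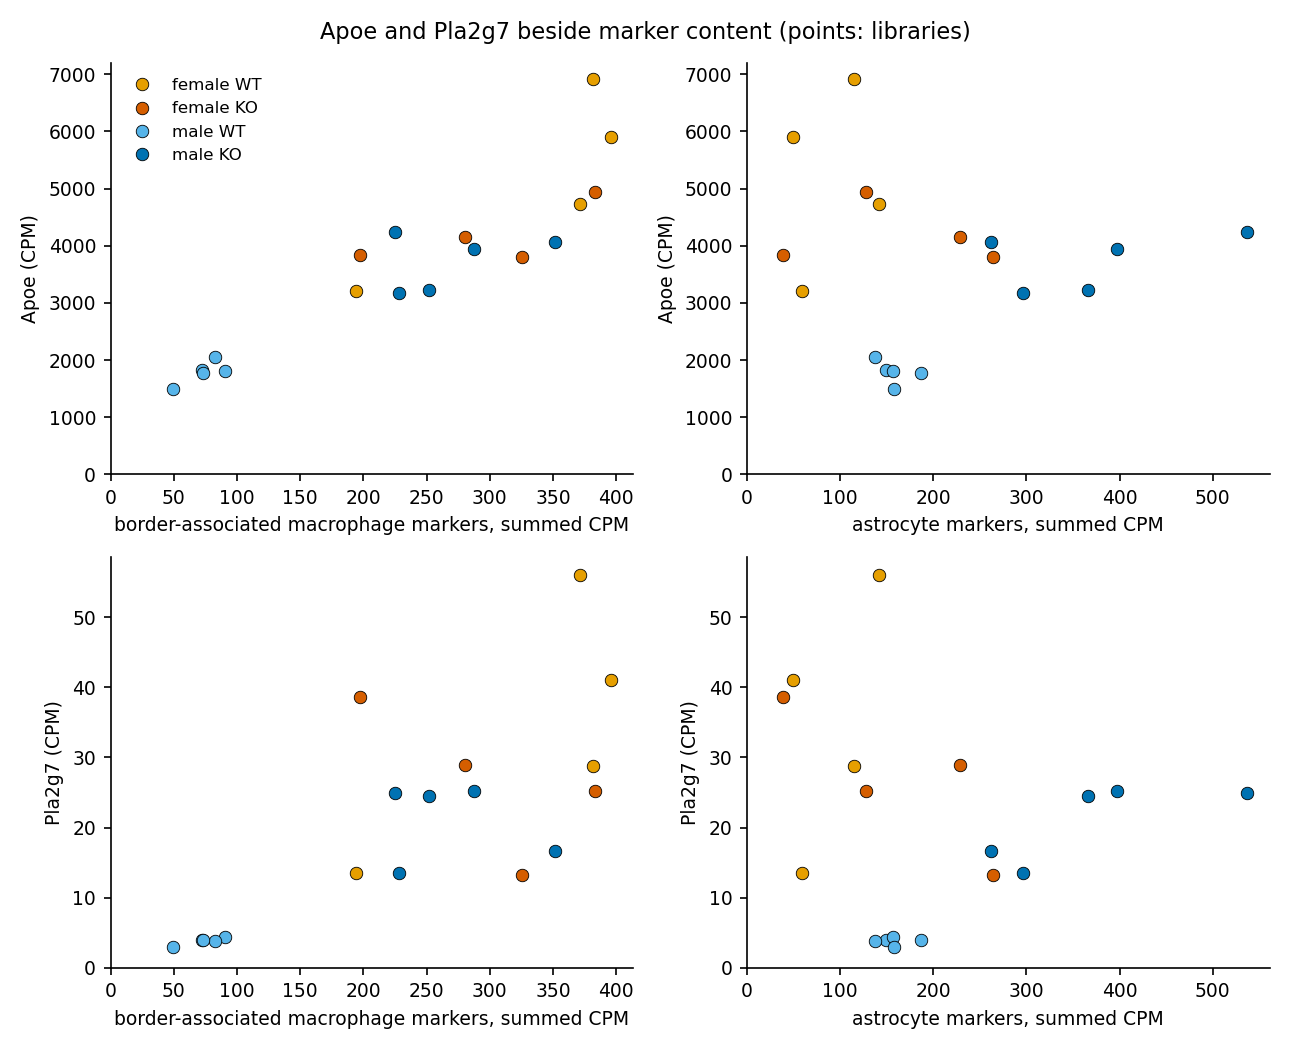
Apoe and Pla2g7 (vertical axes, CPM) against the summed CPM of border-associated macrophage markers and of astrocyte markers (horizontal axes); each point is a library, coloured by group. Male WT libraries stand apart at low macrophage content; with group means removed, r of Apoe was 0.73 with that content and 0.16 with the astrocyte sum.

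The genes whose log2 CPM was most like that of Apoe over the 18 libraries, among 8327 ranked, were Cbr2 (Pearson r of 0.95), Pf4 (0.95), F13a1 (0.94), Pla2g7 (0.92), Ifi27l2a (0.90), Ms4a7 (0.88), Cd163 (0.88) and Oas2 (0.87). Of these 8, 5 are on the border-associated macrophage list: Cbr2, Pf4, F13a1, Ms4a7 and Cd163. The points share library and group, so these r values follow the low male WT group to a large part, and with group means removed they were 0.66, 0.73, 0.66, 0.46, 0.45, 0.58, 0.28 and 0.31 in the same order. Trem2 stood at rank 4003 (r of -0.04). Trem2 itself was most like AI413582 (0.86), Tpgs1 (0.82), Ppfia4 (0.81), Syvn1 (0.80), Rnf216, Vps72, Dctn2 and Alkbh2 (0.79 each), and its r with Tyrobp was 0.55. Without female KO replicate 33, the shallowest library, these fell to 0.68 to 0.81 for the 8 genes and to 0.35 for Tyrobp.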

How the data were processed

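Whole-number counts per gene were deposited by the authors in 2 tables, 1 of reads and 1 of UMI-corrected counts, and the values show no scaling for depth. Cutadapt, STAR, HTSeq and the build mm10 are named in the submitters' processing notes; the sources used here do not give versions, the annotation, the strand setting or how UMIs were corrected. Each table has 34 library columns, and 16 of them, which match no sample of this work, were left out. Symbols and coordinates came from GENCODE M21 (GRCm38). Per the labels' protocols, 30 ng of RNA per sample was barcoded and pooled; the pools are not named.

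UMI-corrected counts were filtered with filterByExpr, scaled by TMM and fitted in edgeR 4.0.16 (R 4.3.3) with 1 mean per group over all 18 libraries (10948 genes, common biological coefficient of variation 17.8%). Calls required a p under 0.05 after Benjamini-Hochberg adjustment over all genes. The SE is the log2 fold change divided by the square root of F. CPM of single genes was TMM-scaled; summed marker CPM used library totals and two-sided exact permutation tests. Relations used 100000 permutations within groups. Data were simulated for all 18 libraries with no group differences except changes put into male KO (10647 genes tested). KO against WT in males then called 73.5% of genes changed 2-fold, 97.9% of those changed 4-fold and 0.0383% of unchanged genes. Zero-count limits are 3 counts and cover counting error only.

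The 10 genes and all lists were chosen with earlier results of these data known. The genes named are the 10, up to 3 called genes per direction of each pathway list with the lowest p in a KO comparison, up to 3 markers per list with the highest CPM, and the 8 genes most like Apoe and Trem2 (predicted genes, pseudogenes and genes with a mean log2 CPM under 3 left out). Lyve1, Aqp4 and Gja1 were named after their values were seen. Alternatives were DESeq2 1.42.0, read counts, other scalings and filters, covariates and left-out libraries.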

Additional observations from a re-analysis of the deposited data

Results flagged for a closer look

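The KO effect on Apoe differed between the sexes, by -1.37 on the log2 scale for females minus males, and that on Pla2g7 by -2.82 (edgeR interaction test, adjusted p = 0.0147 for each). Without female WT replicate 30 neither passed, at -1.30 and -2.64 (edgeR adjusted p = 0.0560 for each).

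Among the female WT libraries, replicate 31 had the lowest sum of border-associated macrophage markers, 194 CPM against 371 to 396 CPM in the other libraries, and it also had the lowest Apoe (3200 CPM) and Pla2g7 (13.5 CPM) of that group. By Dixon's test at 95% about 1 in 20 groups would be set apart by chance, and 48 groups were checked.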

How the results depend on the processing

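No paired analysis was possible because every library has its own replicate number. Of 1583 refitted values of the 10 genes, 1553 stayed on their side of the threshold, 24 lost a call, 6 gained one and 0 called values changed sign. Counts of called genes are given for KO against WT in males (683 genes, 2 of the 10) and in females (293, 0), the difference of the KO effect (26, 2), and for the sexes within WT (1892, 4) and within KO (777, 0), in that order; the cause was not tested where none is named. On read counts they were 222, 136, 10, 1188 and 312, with 1 of the 10 (Lpl) called in females. Fitting only the compared groups gave 1145, 0 and 235 genes for males, females and KO (828 genes in females at an unadjusted p under 0.05). DESeq2 gave 83 for the difference. No filter gave 532 in females, 238 for the difference and 1354 in KO. A filter of 10 CPM in 4 libraries gave 17 for the difference and 2 of the 10 in WT, where Ch25h, Fabp5 and Lpl were no longer tested. Adding the reads-per-UMI range gave 100, 271 and 326 for females, WT and KO. Leaving out female KO 33 and female WT 34 gave 462 in females, and leaving out male KO 6, 9 and 17 together gave 196, 1 and 104 for males, the difference and KO, with 0 of the 10 called for the difference (2 at an unadjusted p under 0.05).

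Covariates for cell content changed these counts as follows. The astrocyte sum left 299, 934 and 110 for males, WT and KO. The border-associated macrophage sum left 0 in males, 3 for the difference and 20 in WT, with 0 of the 10 called in each of these (0, 1 and 2 at an unadjusted p under 0.05). The monocyte and neutrophil sum left 25, 2, 44 and 56 for females, the difference, WT and KO, with 0 of the 10 for the difference (4 unadjusted) and 1, Apoe, in WT. The astrocyte sum without Slc1a3, chosen after seeing the data, left 15 in males and 1 for the difference, with 0 of the 10 in both (2 unadjusted each). With the macrophage sum the male value of Treml2 was -0.49. Leaving out the 2 libraries farthest from their group's mean content, or female WT 31, in the relations to content was also chosen after seeing the data.

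Leaving out 1 library at a time, called genes ranged from 484 to 945 in males, 71 (without female WT 30) to 680 (without female KO 33) in females, 2 (without female WT 30) to 84 (without female WT 31) for the difference, 1092 (without female WT 30) to 2430 in WT and 207 (without female KO 7) to 1782 (without female KO 16) in KO. Of the 10 genes, 2 to 3, 0 to 0, 0 to 2, 3 to 4 and 0 to 0 were called. Male KO minus WT sums ranged from 172 to 241 CPM for astrocyte and 175 to 206 CPM for border-associated macrophage markers, and female ones from 40.8 to 116 CPM and from -86.4 to -6.13 CPM. With a male library left out, the exact test of the sums has fewer splits and the adjusted p was 0.0508. Lpl, Fabp5 and Ch25h, with 209 to 255 UMIs each, were the least deeply counted of the 10.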
